A study of Mus musculus with 9 samples.

Results

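Basement membranes are thin sheets of extracellular matrix, and the genes described here encode their laminin chains, their nidogens and their large heparan sulfate proteoglycans. The 10 genes were chosen by symbol from a table of 30579 genes: the laminin alpha chains Lama2, Lama4 and Lama5, the beta chains Lamb1 and Lamb2, the gamma chain Lamc1, the nidogens Nid1 and Nid2, and the proteoglycans Hspg2 (perlecan) and Agrn (agrin). All 10 were found. The choice was made with earlier results of these data known. The study sequenced RNA of mesenchymal stromal cells that had been sorted out of the marrow of mouse long bones, with 3 libraries in each of 3 groups. The libraries labelled aged Thbs1 knockout came from knockout mice of 18 months, the aged controls from mice of 18 months, and the young controls from mice of 3 months. Thbs1 encodes thrombospondin, a secreted matrix glycoprotein, and neither the strain nor the genotype of the controls was given in the sources used here. All mice had an injection of antibody to the endothelial protein VE-cadherin 10 minutes before death. The levels below are deposited FPKM values, that is, fragments per kilobase of transcript scaled to each library's total.

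A laminin is a cross-shaped trimer of an alpha, a beta and a gamma chain that binds cell surface receptors, chiefly integrins and dystroglycan, and polymerises into a sheet. Nidogens link that sheet to the network of type IV collagen, and perlecan and agrin tether it further through their protein cores and heparan sulfate chains. In bone marrow, basement membranes line sinusoids and arterioles, and the perivascular stromal cells that lie against these vessels are a known source of matrix proteins.

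The promoters of Hspg2 and Agrn are shown because these were the only genes of the 10 whose levels did not overlap between the labelled-knockout and aged control libraries with the knockout side higher, and the promoter of Nid1 is shown for comparison. RefSeq windows (GRCm38.p6, 250 bases before to 50 after the start, written on the strand of the gene) were given for 7 of the 10 genes, with 2 windows for Agrn. Capitals mark the GC box GGGCGG on either strand, where it reads CCGCCC on the other strand and neighbouring boxes may share bases. The windows are chr4:137468553-137468852 (plus strand) for Hspg2, chr4:156197439-156197738 (minus strand) for the outer Agrn start, chr4:156186210-156186509 (minus strand) for the inner Agrn start, and chr13:13437352-13437651 (plus strand) for Nid1.
Hspg2: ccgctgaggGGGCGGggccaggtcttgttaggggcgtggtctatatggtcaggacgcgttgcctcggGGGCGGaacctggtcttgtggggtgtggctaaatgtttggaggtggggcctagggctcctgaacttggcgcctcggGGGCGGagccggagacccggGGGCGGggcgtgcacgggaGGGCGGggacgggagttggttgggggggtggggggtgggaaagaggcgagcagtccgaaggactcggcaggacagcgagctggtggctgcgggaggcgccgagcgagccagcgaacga
Agrn outer start: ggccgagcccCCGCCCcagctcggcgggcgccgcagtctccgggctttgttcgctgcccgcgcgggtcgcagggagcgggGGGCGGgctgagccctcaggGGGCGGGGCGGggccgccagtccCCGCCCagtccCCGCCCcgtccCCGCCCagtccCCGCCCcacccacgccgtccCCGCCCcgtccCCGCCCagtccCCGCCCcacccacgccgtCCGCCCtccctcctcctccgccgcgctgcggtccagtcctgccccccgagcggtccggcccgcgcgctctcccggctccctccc
Agrn inner start: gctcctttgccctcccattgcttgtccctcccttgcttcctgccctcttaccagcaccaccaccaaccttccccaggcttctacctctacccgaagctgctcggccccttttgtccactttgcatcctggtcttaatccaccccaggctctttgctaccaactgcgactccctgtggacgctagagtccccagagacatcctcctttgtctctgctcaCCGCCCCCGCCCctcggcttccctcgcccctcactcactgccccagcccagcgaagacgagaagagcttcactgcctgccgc
Nid1: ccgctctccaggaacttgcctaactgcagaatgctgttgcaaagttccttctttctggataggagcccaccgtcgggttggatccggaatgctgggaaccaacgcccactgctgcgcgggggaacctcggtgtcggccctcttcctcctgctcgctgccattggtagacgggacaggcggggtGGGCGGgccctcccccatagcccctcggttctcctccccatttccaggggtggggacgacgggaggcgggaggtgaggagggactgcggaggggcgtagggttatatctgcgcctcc
The GC box occurred 5 times in the Hspg2 window, 12 times in the outer Agrn window, 2 times in the inner one and once in the Nid1 window. Of all 32851 promoter windows in the RefSeq set, 35.7% held at least 1 such box. Guanine and cytosine made up 70.3% of the Hspg2 window, 83.3% of the outer Agrn window and 64.7% of the Nid1 window, against a median of 52.7% over all windows. The inner Agrn window had 61.3%. The window of Lama5, which is not printed, had 72.7% and 4 GC boxes. The Nid1 window also held 1 CCAAT box (CCAAT, either strand), a motif found in 37.4% of windows and in none of the other 3 printed here. A TATA box (TATAAA) and an AP-1 site (TGANTCA) stood in none of the 8 windows, against 13.6% and 7.81% of all windows. These matches describe the letters only.

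The targeted gene overlapped between the libraries labelled knockout and the aged controls, with no difference detected. Thbs1 measured 24.28, 44.55 and 37.05 FPKM in the libraries labelled knockout, against 35.56, 41.89 and 36.85 FPKM in aged controls and 74.98, 73.11 and 58.03 FPKM in young controls. A two-sided exact permutation test of the labelled-knockout libraries against aged controls, 3 against 3, gave p = 0.9, where the smallest p possible is 0.1. A value per gene does not show whether the deleted part of the transcript is missing. The estimated depth ran over 17.6 to 27.5 M reads (M, mega), and each of the 10 genes rested on 38 to 11275 estimated reads per library. Labelled-knockout library 2 stood apart, with 13503 genes above 0 FPKM against 16557 to 18382 in the other libraries. Immunoglobulin genes took an estimated 0.162%, 19.2% and 2.36% of reads in labelled-knockout libraries 1, 2 and 3, against 21.6%, 4.27% and 31.9% in aged controls and 0.17% or less in young controls. Because FPKM is scaled to each library's total, reads taken by such genes lower the FPKM of all others. Stromal markers were abundant throughout: the summed FPKM of Lepr, Cxcl12 and 6 other stromal genes was 6270 to 8653 in labelled-knockout libraries, 4147 to 6058 in aged controls and 8104 to 9212 in young controls. In bulk RNA, fewer cells of a type and less RNA per cell cannot be told apart.

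The 10 genes covered a wide range of levels in every group. The nidogens had the highest means in all 3 groups, followed by Lamc1 and Lamb1, then Lamb2, Lama4, the proteoglycans, and last Lama2 and Lama5. Nid1, which joins laminin to collagen, averaged 47.7 ± 12.4 FPKM in labelled-knockout libraries, 37.2 ± 7.57 FPKM in aged controls and 56.3 ± 11.6 FPKM in young controls (SD, n = 3 each). Lama5 averaged 0.527 ± 0.11 FPKM in labelled-knockout libraries, 1.42 ± 0.782 FPKM in aged controls and 0.333 ± 0.142 FPKM in young controls (SD, n = 3 each). Most neighbours in this order overlapped between libraries. In the labelled-knockout libraries the only neighbours that did not were Agrn above Lama2. In aged controls Lamb2 stood clear of Lama4 and Lama4 of Agrn, and in young controls Lama4 stood clear of Agrn, Hspg2 of Lama2 and Lama2 of Lama5. Hspg2 ranked above Agrn by mean only in the labelled-knockout group, where it was the higher of the pair in 2 of 3 libraries.

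**Figure D1:**
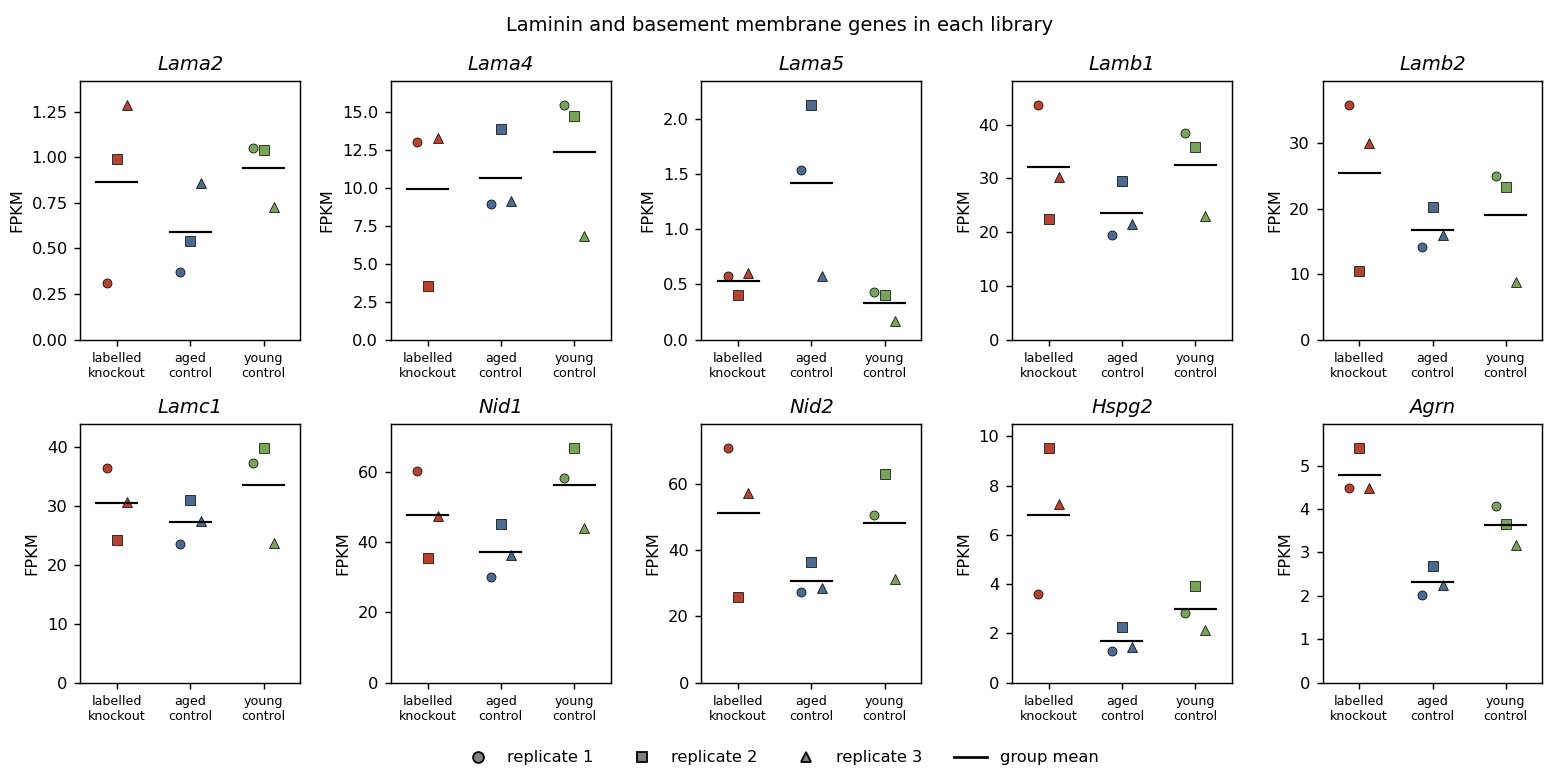
FPKM (vertical axis, from 0, a scale per panel) of each of the 10 genes in every library, with labelled-knockout libraries on the left, aged controls in the middle and young controls on the right; marker shapes are library numbers and horizontal lines are group means. For Hspg2 the 3 labelled-knockout libraries lie at 3.62 to 9.54 FPKM, above the aged controls at 1.29 to 2.27 FPKM.

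Among the laminin alpha chains, Lama4, the short alpha chain found in vessel walls, made up most of the signal. Its FPKM were 13.04, 3.51 and 13.28 in labelled-knockout libraries, 8.93, 13.93 and 9.15 in aged controls, and 15.52, 14.78 and 6.84 in young controls. The groups overlapped, and labelled-knockout library 2 was the lowest of the 9. Lama4 held 70.2%, 46.7% and 71.6% of the FPKM summed over the alpha chain genes in labelled-knockout libraries, 65.7% to 68.6% in aged controls and 64.1% to 77.2% in young controls. Lama1, an alpha chain outside the 10 genes that is best known from the embryo, came next with 17.0% to 34.6% in labelled-knockout libraries, 14.8% to 22.5% in aged controls and 11.3% to 21.5% in young controls. Lama2, the alpha chain of muscle and Schwann cell basement membranes, measured 0.31, 0.99 and 1.29 FPKM in labelled-knockout libraries, 0.37, 0.54 and 0.86 FPKM in aged controls, and 1.05, 1.04 and 0.73 FPKM in young controls. These groups overlapped too. Summed alpha chain FPKM came to 31.1 to 60.4 per 100 FPKM of Lamc1 in labelled-knockout libraries, 50.8 to 66.1 in aged controls and 45.0 to 53.9 in young controls, so the alpha chains were below the gamma chain per length of transcript in all 9 libraries.

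Of the chains that complete the trimer, Lamb1 came to 78.4 to 120 FPKM per 100 FPKM of Lamc1 over the 9 libraries, and Lamb2 had a lower mean than both in every group. Lamb1, a widely expressed beta chain, measured 43.73, 22.45 and 30.26 FPKM in labelled-knockout libraries, 19.52, 29.42 and 21.53 FPKM in aged controls, and 38.34, 35.85 and 23.06 FPKM in young controls. Lamc1, the gamma chain of most laminins, measured 36.54, 24.18 and 30.70 FPKM in labelled-knockout libraries, 23.62, 31.01 and 27.45 FPKM in aged controls, and 37.29, 39.94 and 23.69 FPKM in young controls. For both genes the groups overlapped. Lamb2, the beta chain of the kidney filter and the neuromuscular junction, measured 35.96, 10.54 and 30.03 FPKM in labelled-knockout libraries, 14.22, 20.34 and 15.93 FPKM in aged controls, and 25.02, 23.39 and 8.85 FPKM in young controls. Lamb1 held 50.1% to 68.1% of beta chain FPKM in labelled-knockout libraries, 57.2% to 59.0% in aged controls and 60.5% to 72.2% in young controls, so its share in every aged control lay below that in every young control.

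**Figure D2:**
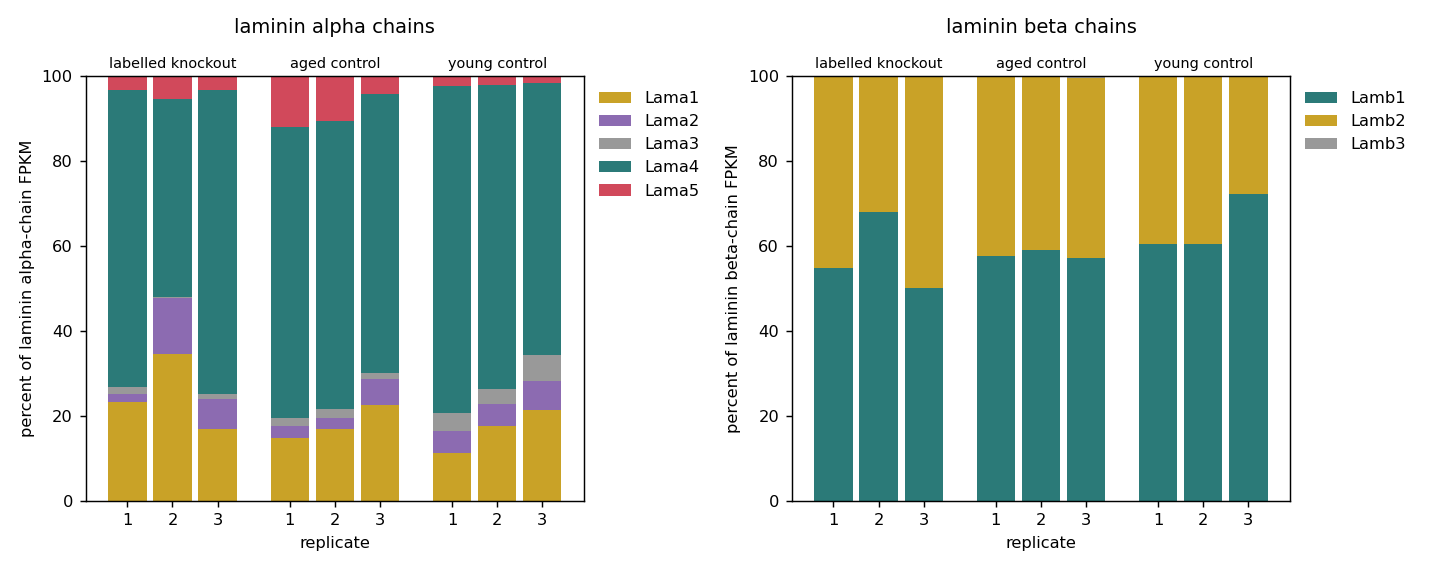
Share (percent, vertical axis) of each chain in the FPKM summed over the laminin alpha chain genes and over the beta chain genes, for each of the 9 libraries from labelled knockout on the left to young control on the right. Lama4 is the largest alpha part of every library, at 46.7% in labelled-knockout library 2 and at least 64.1% in the other 8.

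Against aged controls, the labelled-knockout libraries had more Hspg2 RNA. Hspg2 rose, while Agrn was also higher in every labelled-knockout library without passing the threshold. Of the 9 genes tested, 1 passed upward at an adjusted p under 0.05 and 0 downward, when 1.52% of the 11988 genes tested passed upward and 1.96% downward (limma on log2(FPKM + 1), all 9 libraries in 1 fit). With the immunoglobulin genes left out, the split of calls over all genes was 134 upward and 398 downward, against 182 and 235 in the fit of all genes. Lama5 did not reach 1 FPKM in 3 libraries and was not in that test. The other 9 did, 8 of them in all 9 libraries and Lama2 in only 3.

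Perlecan, encoded by Hspg2 (ENSMUSG00000028763.17, chr4:137468769-137570630, plus strand, GRCm38), is a very large proteoglycan that binds growth factors as well as laminin, nidogen and collagen. Its FPKM were 3.62, 9.54 and 7.27 in labelled-knockout libraries, against 1.29, 2.27 and 1.47 in aged controls and 2.85, 3.93 and 2.16 in young controls. Every labelled-knockout library was above every aged control, and library 1 of the labelled-knockout group lay inside the range of the young controls. The means were 6.81 ± 2.99 FPKM in labelled-knockout libraries and 1.68 ± 0.522 FPKM in aged controls (SD, n = 3 each). The difference on the log2(FPKM + 1) scale was 1.48 (SE 0.33, 95% interval 0.73 to 2.23, limma adjusted p = 0.0474), higher in 3 of 3 libraries. The adjusted p stood just under the threshold and did not withstand the loss of most single libraries. It was 0.256, 0.101 and 0.114 without aged control 1, 2 or 3, 0.0930, 0.0810 and 0.0782 without young control 1, 2 or 3, and 0.112 without labelled-knockout library 3. It was 0.0349 without labelled-knockout library 1 and 0.0289 without library 2, the one that stood apart.

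Agrin, encoded by Agrn (ENSMUSG00000041936.18, chr4:156165290-156197488, minus strand), clusters acetylcholine receptors at the neuromuscular junction and binds dystroglycan in many tissues. It measured 4.49, 5.41 and 4.48 FPKM in labelled-knockout libraries, against 2.02, 2.69 and 2.24 FPKM in aged controls and 4.07, 3.66 and 3.18 FPKM in young controls. The 3 groups did not overlap anywhere, with the aged controls lowest, the young controls between and the labelled-knockout libraries highest. The log2 difference between labelled-knockout libraries and aged controls was 0.81 (SE 0.20, limma adjusted p = 0.065), and without labelled-knockout library 2 it was 0.73 (adjusted p = 0.0275). Hspg2 and Agrn made 2 of the 9 tested genes whose labelled-knockout libraries all exceeded the aged controls, and 16.6% of all genes tested did the same. Agrn also varied little within groups, with an SD of 11.1% of the mean in labelled-knockout libraries, 14.7% in aged controls and 12.2% in young controls, against 56.0%, 26.5% and 38.9% for Lama4.

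The nidogens and laminin chains showed no call in this comparison with all 9 libraries. Nid2 (ENSMUSG00000021806.4, chr14:19751265-19811787, plus strand), the nidogen that can stand in for Nid1, measured 70.90, 25.85 and 57.17 FPKM in labelled-knockout libraries, against 27.49, 36.44 and 28.43 FPKM in aged controls and 50.74, 62.84 and 31.39 FPKM in young controls. Labelled-knockout library 2 was the lowest of the 9 and the other labelled-knockout libraries exceeded every aged control. The Nid2 log2 difference was 0.61 (SE 0.39, limma adjusted p = 0.424), and without labelled-knockout library 2 it was 1.04 (adjusted p = 0.0421), so that 3 of the 9 genes passed in that fit, when 11.5% of all genes passed upward and 4.48% downward. Exons of Nid2 share 437 bases (8.45%) with Rtraf on the opposite strand. The sources used here do not say whether strand was used in counting, so reads of that stretch cannot be told apart. Nid1 (chr13:13437551-13512269, plus strand) measured 60.27, 35.47 and 47.32 FPKM in labelled-knockout libraries, against 30.16, 45.20 and 36.17 FPKM in aged controls and 58.12, 66.76 and 43.87 FPKM in young controls, with overlap between the labelled-knockout and aged control libraries. Its log2 difference was 0.34 (limma adjusted p = 0.538), and those of the laminin genes ran from -0.24 for Lama4 to 0.42 for Lamb2 (adjusted p = 0.506 to 0.825). Differences were positive for 8 of the 9 genes and for 55.7% of all genes tested. The median difference of the 9 genes was 0.41, beside 0.07 for all genes tested. After rescaling without the immunoglobulin genes, the medians were 0.19 for the 9 genes and -0.11 for all genes, 7 of the 9 were positive, and Lamc1 turned to -0.08.

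**Figure D3:**
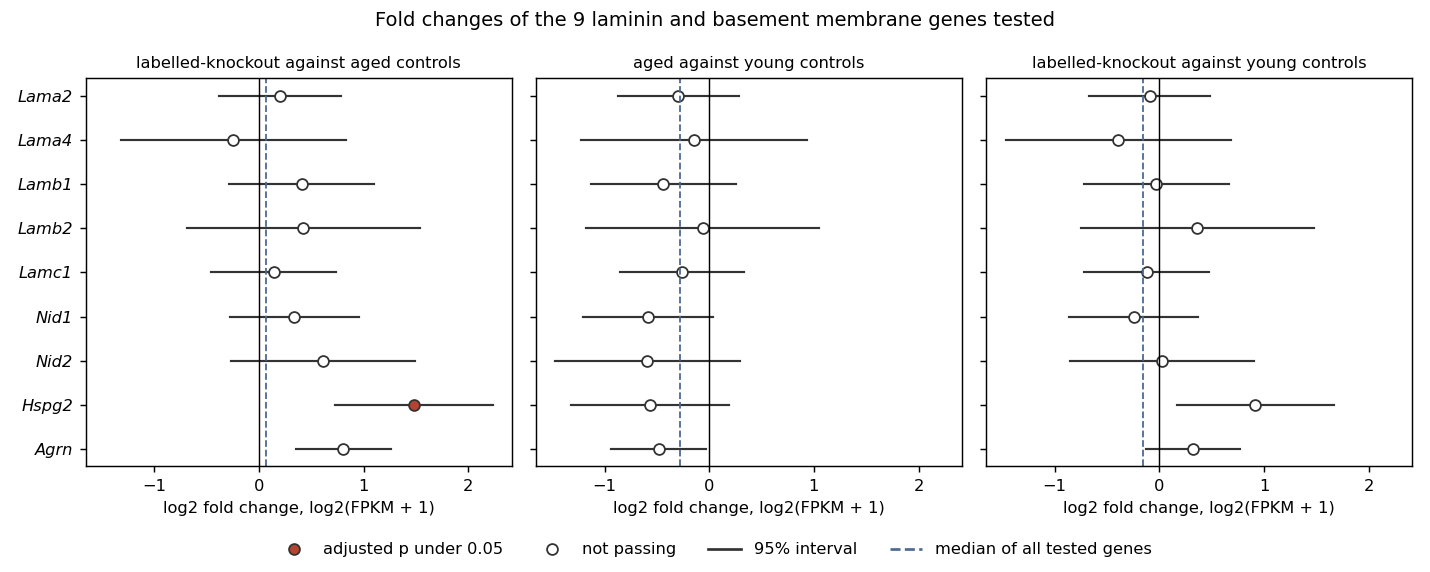
Differences in log2(FPKM + 1) (horizontal axis) with 95% intervals from limma for the 9 laminin and basement membrane genes tested, in each of the 3 comparisons. The interval of Hspg2 for labelled-knockout libraries against aged controls, 0.73 to 2.23, is the one whose adjusted p passed 0.05.

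Genes that mark other cell types differed between the same groups. The summed FPKM of 11 mural cell markers was 211, 148 and 366 in labelled-knockout libraries, against 60.5, 69.2 and 72.0 in aged controls. Acta2, Tagln and Mcam rose (3 of 10 tested, limma adjusted p under 0.05), when 1.52% of all genes tested passed upward. The sum of 8 chondrocyte markers was 1119, 113 and 2928 in labelled-knockout libraries, against 14.5 to 16.3 in aged controls. All 8 differences were positive, and 6 of 8 passed upward (limma adjusted p under 0.05). Among the labelled-knockout libraries both sums were lowest in library 2, where Hspg2 was highest. The sum of 7 osteoblast markers was 4696, 1510 and 6859 in labelled-knockout libraries, against 995 to 1850 in aged controls. All 7 differences were positive, and 3 of 7 passed upward (limma adjusted p under 0.05). Skeletal muscle markers summed to 1.27, 22.6 and 24.3 FPKM in labelled-knockout libraries, against 1.23 to 2.88 FPKM in aged controls. In labelled-knockout library 2 that sum was Mylpf alone, with Acta1, Myh1, Myh4, Ckm, Tnnt3, Myod1 and Pax7 at 0. In library 3 the largest part was Acta1 at 12.17 FPKM. Of the Schwann cell markers, Pmp22 measured 124.31, 79.49 and 129.30 FPKM in labelled-knockout libraries, against 55.97, 75.04 and 67.57 FPKM in aged controls, and other cells also express it. The 12 endothelial markers summed to 3.46 to 10.3 FPKM in labelled-knockout libraries, against 4.0 to 14.5 FPKM in aged controls. The endothelial sum was lowest of all 9 libraries in labelled-knockout library 2, where Cdh5, which encodes VE-cadherin, measured 1.99 FPKM and Kdr, Tek, Tie1, Cldn5, Flt4, Stab2 and Robo4 were at 0. In the other 8 libraries Cdh5 measured at most 0.11 FPKM. Leukocyte markers went the other way, with 9 of them summing to 62.1 to 113 FPKM in labelled-knockout libraries, against 183 to 1144 FPKM in aged controls. Of the 8 tested, 6 passed downward (limma adjusted p under 0.05), with a median difference of -3.91. Of 7 plasma cell markers, 1 passed downward, when 1.96% of all genes tested did. The part of these cell types in the Hspg2 and Agrn differences was not tested.

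Against young controls, the aged controls had negative log2 differences for all 9 genes tested, 3 of which turned positive under other scalings, and none passed the test. Here 2.57% of all genes tested passed upward and 1.47% downward, and 1 of the 9 genes, Agrn, had an unadjusted p under 0.05 and a lower level, as did 15.7% of all genes. A negative difference was the usual case in this comparison, found for 74.5% of all genes tested. The largest differences were those of Nid2 at -0.59 (limma adjusted p = 0.414), Nid1 at -0.58 (adjusted p = 0.255), Hspg2 at -0.57 (adjusted p = 0.36), Agrn at -0.48 (SE 0.20, adjusted p = 0.203) and Lamb1 at -0.44 (adjusted p = 0.443). The remaining 4, Lama2, Lamc1, Lama4 and Lamb2, lay between -0.29 and -0.06. Agrn was the only one of the 9 whose aged controls all lay below the young controls, a pattern shown by 37.4% of all genes tested.

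The median difference of all genes was itself -0.28, and rescaling the libraries to the median ratio moved it to 0.00. On that scale the median of the 9 genes was -0.14, beside -0.44 as deposited, with 6 negative and 3 positive: Lama4, Lamb2 and Lamc1 turned to 0.17, 0.27 and 0.08. The calls over all genes became 344 upward and 65 downward on that scale, against 308 and 176 as deposited. None of the 9 genes passed on either scale.

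Against young controls, the labelled-knockout libraries also gave no call among the 9 genes, when 0.00834% of all genes passed upward and 0.0167% downward, 3 in all. Hspg2 alone had an unadjusted p under 0.05, with a higher level, as did 2.11% of all genes. Its log2 difference was 0.92 (SE 0.33, limma adjusted p = 0.51), and its libraries overlapped. Agrn did not overlap and differed by 0.32 (limma adjusted p = 0.632), as did 4.08% of all genes tested in that direction. The other 7 lay between -0.39 for Lama4 and 0.36 for Lamb2. This comparison shares the labelled-knockout libraries and the young controls with those above, so the 3 sets of differences are not separate measurements.

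Lama5 (ENSMUSG00000015647.9, chr2:180176373-180225859, minus strand), an alpha chain of adult endothelial and epithelial basement membranes, followed another pattern from the other 9 genes. It measured 0.58, 0.40 and 0.60 FPKM in labelled-knockout libraries, 1.54, 2.13 and 0.58 FPKM in aged controls, and 0.43, 0.40 and 0.17 FPKM in young controls. All aged controls lay above all young controls, 2 of them far above, and aged control 3 lay within the range of the labelled-knockout libraries. In a fit of all 22712 genes above 0 with no minimum, the log2 difference between aged and young controls was 0.81 (SE 0.25, limma adjusted p = 0.169), and that between labelled-knockout libraries and aged controls was -0.61 (SE 0.25, adjusted p = 0.305). Lama5 held 11.8%, 10.4% and 4.16% of alpha chain FPKM in aged controls, against 1.59% to 2.14% in young controls, and 3.12% to 5.32% in labelled-knockout libraries. Leukocyte markers were also highest in aged controls 1 and 2: 9 of them summed to 923, 1144 and 183 FPKM in aged controls. They summed to 56.0, 65.8 and 93.2 FPKM in young controls, and to 62.1, 113 and 68.4 FPKM in labelled-knockout libraries. Within each of these 2 groups the leukocyte sum was highest in the library where Lama5 was lowest. Of the endothelial markers, Pecam1, which leukocytes and platelets also carry, measured 9.34, 11.58 and 2.07 FPKM in the aged controls, and Kdr did not exceed 0.10 FPKM in any library. The part of these cells in the Lama5 values was not tested.

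Set against Lamc1 within each library, which removes the scaling by the library total, 3 of the genes had aged controls below both other groups, and Lama5 had them above. Per 100 FPKM of Lamc1, Hspg2 came to 9.91, 39.5 and 23.7 in labelled-knockout libraries, 5.46, 7.32 and 5.36 in aged controls, and 7.64, 9.84 and 9.12 in young controls. Agrn came to 12.3, 22.4 and 14.6 per 100 FPKM of Lamc1 in labelled-knockout libraries, 8.55, 8.68 and 8.16 in aged controls, and 10.9, 9.16 and 13.4 in young controls. Nid1 came to 165, 147 and 154 per 100 FPKM of Lamc1 in labelled-knockout libraries, 128, 146 and 132 in aged controls, and 156, 167 and 185 in young controls. For each of these 3 genes all aged controls lay below both other groups.

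Over the 11987 genes tested other than Lamc1, 6.27% had a ratio below both other groups in every aged control, and 4.14% had one above both. Taken singly, the ratio to Lamc1 was higher in all labelled-knockout libraries than in all aged controls for 11.3%, and lower in all aged controls than in all young controls for 14.8%. Nid2 was also below the young controls in every aged control on this measure, while Lama2, Lama4, Lamb1 and Lamb2 overlapped in all 3 comparisons. Lama5 per 100 FPKM of Lamc1 ran the other way, at 1.59, 1.65 and 1.95 in labelled-knockout libraries, 6.52, 6.87 and 2.11 in aged controls, and 1.15, 1.0 and 0.718 in young controls. A ratio higher in every aged control than in every young control was found for 10.3% of genes, and one lower in every labelled-knockout library than in every aged control for 9.57%. For that gap the nearest pair was 1.95 in labelled-knockout library 3 and 2.11 in aged control 3. For Hspg2 and Lama5 every labelled-knockout library also exceeded every young control on this measure, as for 4.47% of genes, and for Hspg2 by 9.91 against 9.84 at the nearest. All these ratios share the Lamc1 value of a library as their denominator. The shares of genes are over those tested, and Lama5, below the minimum, was not among them.

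**Figure D4:**
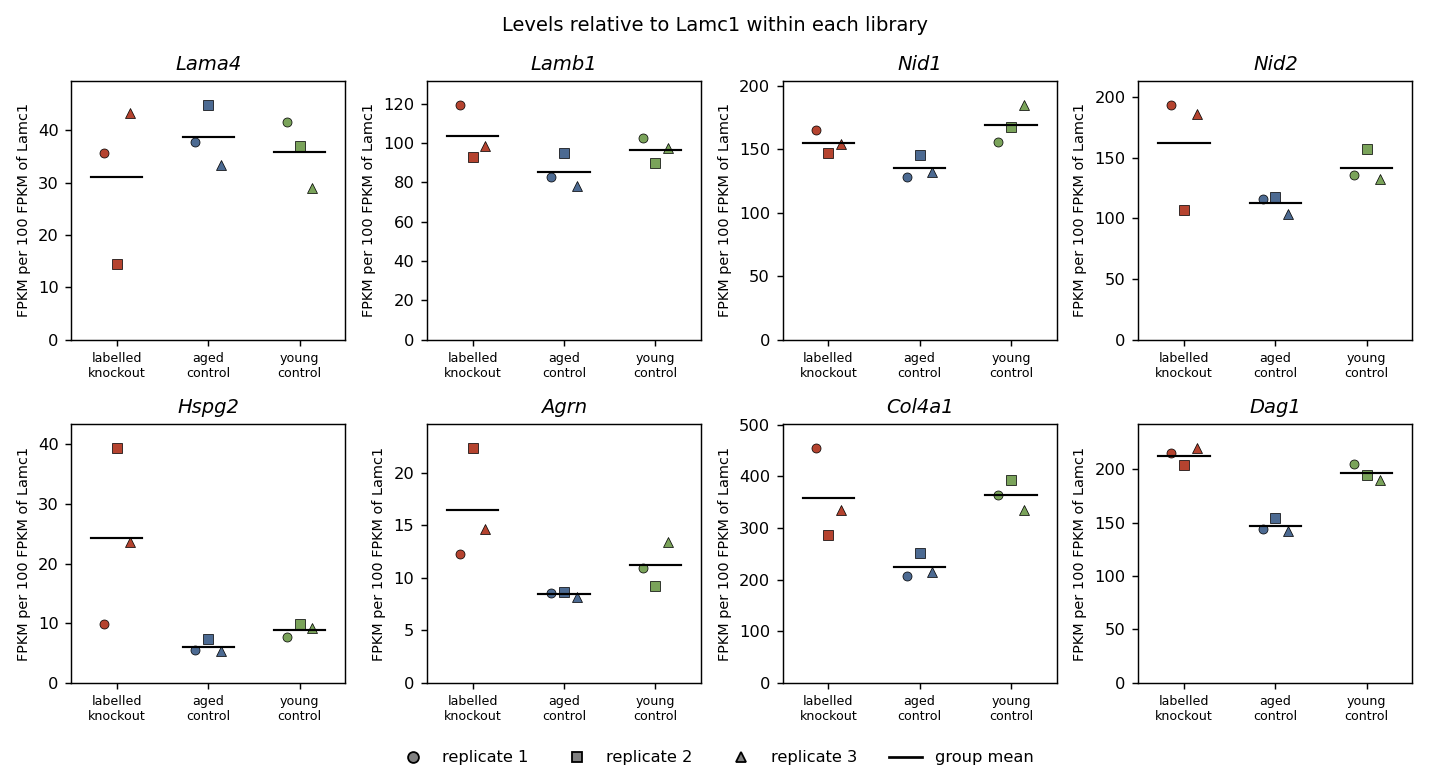
FPKM per 100 FPKM of Lamc1 (vertical axis, a scale per panel) in each library, with labelled-knockout libraries on the left, aged controls in the middle and young controls on the right; marker shapes are library numbers and horizontal lines are group means. The aged controls lie below the labelled-knockout libraries for Hspg2, Agrn and Nid1, at 5.36 to 7.32, 8.16 to 8.68 and 128 to 146.

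Of 25 other basement membrane genes, 14 were tested for labelled-knockout libraries against aged controls. Npnt and Col15a1 passed upward and none downward, when 1.52% of all genes passed upward, but Col15a1 entered the test only through the libraries in which it was high, so its pass is given as a description. The 14 differences were all positive with a median of 0.85, beside 55.7% positive and a median of 0.07 for all genes tested. In 6 of the 14, Col15a1 and Fbln2 among them, every labelled-knockout library exceeded every aged control, as in 16.6% of all genes tested. Fbln2 measured 1.29, 5.33 and 7.15 FPKM in labelled-knockout libraries. It was at most 0.75 FPKM in aged controls, and 0.95, 1.72 and 0.41 FPKM in young controls. Col15a1, Fbln2 and Egflam would not have reached the 1 FPKM minimum without the labelled-knockout libraries. Counts and the median over the 14 include them and are given as a description. Without labelled-knockout library 2, 5 of 13 passed upward and none downward, when 11.5% of all genes in that fit passed upward. Without labelled-knockout library 3 none passed and 2 of 12 were negative, when 0.237% of all genes passed upward. Col15a1, a collagen that bridges basement membranes to the matrix outside, measured 1.07, 2.43 and 1.91 FPKM in labelled-knockout libraries, 0.16, 0.22 and 0.21 FPKM in aged controls, and 0.49, 0.51 and 0.47 FPKM in young controls. The 3 labelled-knockout libraries alone took it past the 1 FPKM minimum. Its log2 difference against aged controls was 1.2 (SE 0.23, limma adjusted p = 0.029), and the adjusted p was 0.0526 with no minimum and 0.131 with only the 2 groups compared. Npnt (nephronectin), an integrin ligand, measured 6.20, 5.84 and 5.41 FPKM in labelled-knockout libraries, 1.19, 1.14 and 2.27 FPKM in aged controls, and 2.54, 4.58 and 3.54 FPKM in young controls. Its log2 difference against aged controls was 1.45 (SE 0.26, limma adjusted p = 0.0251), and the adjusted p was 0.0612 with no minimum and 0.119 with only the 2 groups compared. Both calls were lost without any one of several libraries: for Col15a1 without any young or any aged control (adjusted p = 0.0562 to 0.184), and for Npnt without young control 1 or 3, aged control 1 or 2, or labelled-knockout library 1 or 3 (adjusted p = 0.0514 to 0.176).

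Col4a1 and Col4a2, the type IV collagen chains of most basement membranes, were among the most abundant of these genes, while Col4a3, Col4a4, Col4a5 and Col4a6 were too low to be tested. Col4a1 measured 166.37, 69.03 and 102.69 FPKM in labelled-knockout libraries, 48.97, 77.83 and 58.98 FPKM in aged controls, and 135.89, 156.78 and 79.06 FPKM in young controls. Col4a2 measured 88.03, 41.88 and 65.03 FPKM in labelled-knockout libraries, 25.40, 42.06 and 29.09 FPKM in aged controls, and 69.97, 73.32 and 42.97 FPKM in young controls. For both, every young control lay above every aged control and labelled-knockout library 2 lay within the aged controls. Their log2 differences between labelled-knockout libraries and aged controls were 0.79 and 0.96 (limma adjusted p = 0.286 and 0.162), and between aged and young controls -0.96 and -0.92 (adjusted p = 0.184 and 0.157). Sparc, a collagen-binding glycoprotein that bone cells also make in quantity, measured 2042.69, 668.56 and 3248.12 FPKM in labelled-knockout libraries, 368.70, 510.36 and 389.73 FPKM in aged controls, and 1501.08, 1459.30 and 1530.59 FPKM in young controls. The aged controls overlapped with neither other group, at log2 differences of 1.97 for labelled-knockout libraries against aged controls (limma adjusted p = 0.0704) and -1.84 for aged against young controls (adjusted p = 0.079). Col18a1, the collagen whose end is endostatin, differed by 0.72 between labelled-knockout libraries and aged controls (limma adjusted p = 0.268) and by -0.15 between aged and young controls (adjusted p = 0.835). In the comparison of aged with young controls, 0 of the 14 genes passed in limma, 5 had an unadjusted p under 0.05, all lower, and the median was -0.41. Of all genes tested, 15.7% were lower at such a p, and the median was -0.28. On the median-ratio scale the median of the 14 was -0.23, with 11 of 14 negative, beside 5976 of 11988 genes negative over all tested.

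**Figure D5:**
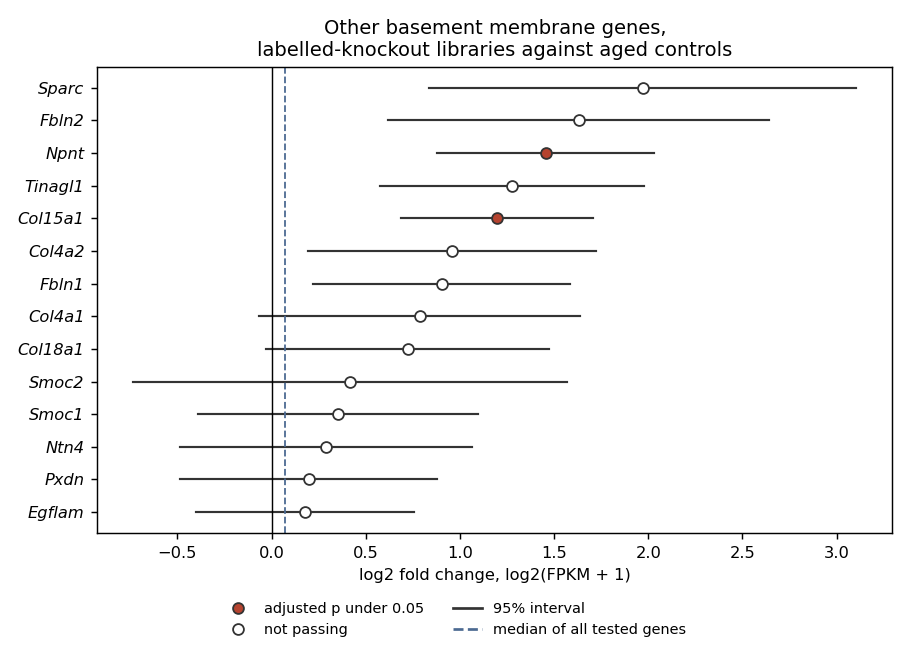
Differences in log2(FPKM + 1) between labelled-knockout libraries and aged controls (horizontal axis, positive where the labelled-knockout libraries are higher) with 95% intervals from limma for the 14 other basement membrane genes tested, with the median of all genes tested as a dashed line. All 14 points lie right of 0, and the filled points are Npnt at 1.45 and Col15a1 at 1.2, whose adjusted p was under 0.05.

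Of 16 receptor genes on the cell side, 14 were tested, and for labelled-knockout libraries against aged controls 0 passed in limma with all 9 libraries. An unadjusted p under 0.05 was found for 2 upward and 2 downward, beside 12.5% and 7.3% of all genes. Without labelled-knockout library 2, 5 of the 14 passed upward and 1 downward, when 11.5% and 4.48% of all genes did, and without aged control 3, 2 passed downward, when 2.57% of all genes did. Dag1 (dystroglycan), which binds laminin and agrin through its sugar chains, measured 78.57, 49.29 and 67.65 FPKM in labelled-knockout libraries, 34.09, 47.87 and 39.08 FPKM in aged controls, and 76.60, 77.93 and 44.97 FPKM in young controls. All its labelled-knockout values exceeded the aged controls, at a log2 difference of 0.67 (limma adjusted p = 0.242). Between aged and young controls, which overlapped, the Dag1 difference was -0.68 (limma adjusted p = 0.213). Per 100 FPKM of Lamc1, Dag1 came to 204 to 220 in labelled-knockout libraries, 142 to 154 in aged controls and 190 to 205 in young controls.

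Itgb1, the shared beta subunit of laminin-binding integrins, measured 243.52, 72.47 and 228.06 FPKM in labelled-knockout libraries, 169.96, 263.01 and 163.93 FPKM in aged controls, and 262.33, 276.10 and 172.46 FPKM in young controls, all overlapping. Its log2 differences were -0.29 for labelled-knockout libraries against aged controls (limma adjusted p = 0.78) and -0.26 for aged against young controls (adjusted p = 0.785). Itga6, a laminin-binding alpha subunit also carried by leukocytes and platelets, measured 0.52, 0.29 and 1.55 FPKM in labelled-knockout libraries, 5.37, 7.65 and 1.34 FPKM in aged controls, and 1.45, 0.49 and 1.1 FPKM in young controls. As with Lama5, aged controls 1 and 2 were high and aged control 3 was not. The Itga6 log2 differences were -1.56 for labelled-knockout libraries against aged controls (limma adjusted p = 0.116) and 1.36 for aged against young controls (adjusted p = 0.143).

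The enzymes that build the sugars on these proteins gave no call with all 9 libraries either. For labelled-knockout libraries against aged controls, 0 of 11 tested genes of dystroglycan glycosylation passed in limma (2 at an unadjusted p under 0.05, both upward), with a median of 0.23. The 15 tested genes of heparan sulfate synthesis had 0 passing in limma (3 at an unadjusted p under 0.05, all upward), with 13 positive and a median of 0.41. Of all genes tested, 12.5% were higher at such a p, 55.7% were positive and the median was 0.07. Without labelled-knockout library 2, 3 of the 11 and 2 of the 15 passed upward, when 11.5% of all genes in that fit did. For aged against young controls, the medians were -0.44 for dystroglycan glycosylation and -0.40 for heparan sulfate synthesis, beside -0.28 for all genes tested. None passed in limma, and 2 and 0 genes were lower at an unadjusted p under 0.05, as were 15.7% of all genes. Beside these, the 4605 tested genes with at least 5 kb of exon, a length that all 10 genes reach, had medians of 0.00 for labelled-knockout libraries against aged controls and -0.20 for aged against young controls.

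Among the 9 genes tested, the profiles over the 9 libraries were closest for Lamb1 and Nid1, with a root-mean-square difference of 0.135 between their centred log2(FPKM + 1) values, followed by Lamc1 and Nid1 at 0.156 and Lamb1 and Lamc1 at 0.162. The profiles farthest apart were those of Lama4 and Hspg2, at 1.02. By the same measure over all genes tested, the nearest to Hspg2 were Tinagl1 at 0.239, Col15a1 at 0.249 and Hhip at 0.257. Tinagl1, a matrix glycoprotein of basement membranes, measured 4.50, 11.66 and 9.97 FPKM in labelled-knockout libraries, 2.54, 3.25 and 2.56 FPKM in aged controls, and 4.15, 4.02 and 4.98 FPKM in young controls. Like Hspg2 it was highest in labelled-knockout library 2 (log2 difference of labelled-knockout libraries against aged controls 1.28, limma adjusted p = 0.0603). The nearest genes to Agrn were Tada2a, Tent4a and Trip10, to Nid1 Ppfibp1, Speg and Exoc3l4, and to Nid2 Flvcr2, Ext2 and Ece1. For the laminins they were Ppp1r15b, Mprip and Hsf1 for Lamb1, Susd2, Wdpcp and Wdr35 for Lamc1, Ppp2r5b, Ddb1 and Slc12a4 for Lamb2, Ift172, Morc2a and Ano6 for Lama4, and Inhbb, Zfp9 and Ccdc50 for Lama2. These distances include differences between libraries of 1 group, such as the low values of labelled-knockout library 2 for Lama4 and Nid2.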

How the data were processed

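RNA was measured in 9 libraries of sorted mouse bone marrow stromal cells. Per the labels' protocols, SMART-Seq v4 was used with an input of 2 ng. Per the submitters' processing notes, the tools were FastQC 0.11.5, STAR and edgeR and the builds GRCm38 and mm10; their roles, the sort gates, the annotation and the counter were not given in the sources used here. Values in the authors' deposited table are FPKM per gene, rounded to 2 decimals, per the file headers. GENCODE M21 gave a gene model for 30192 of 30579 genes (98.7%), used for coordinates, exon length and estimated reads. Depth was estimated from the step between low FPKM values times exon length. With that step, 98.8% to 100% of the low values came out whole within 0.1, and the estimate covers counting only.

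Genes were tested on log2(FPKM + 1) by limma 3.58.1 (R 4.3.3) with a mean-variance trend, in 1 fit of 9 libraries with group means and no covariate (6 residual degrees of freedom), on the 11988 genes with at least 1 FPKM in at least 3 libraries. Differences on this scale understate the change of low genes. P-values were adjusted by Benjamini-Hochberg over all genes tested and called under 0.05. Separate mice per library are not stated in the labels, so the p-values cover only the spread between these libraries. Single genes were also tested by a two-sided exact permutation test. The code was tested on simulated data. Alternatives changed the pseudocount, the minimum, the scaling, the variance model and the libraries used. Those for Col15a1, Npnt, Thbs1 and the gene lists were chosen after seeing the data. The 10 genes, the gene lists and the rule for named genes were chosen with earlier results of these data known. That rule took the 10, the fixed collagen, integrin and dystroglycan genes, listed genes that pass, and the 3 nearest genes to each. Predicted genes were left out of the nearest genes. Tinagl1 was named as a nearest gene, and Lama1, Rtraf, Pecam1, Kdr, Fbln2 and Egflam were named after their values were seen. Sequences are from RefSeq.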

Additional observations from a re-analysis of the deposited data

How the results depend on the processing

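Hspg2 kept its direction between labelled-knockout libraries and aged controls in all 18 alternatives that gave a value (1.22 to 1.89) and passed in 6; its adjusted p was 0.104 with no minimum, 0.0811 with median-ratio scaling, 0.0609 with immunoglobulin genes left out, 0.158 with 2 groups only and 0.0676 with a replicate block. With the block, Npnt had an adjusted p of 0.0699 and Col15a1 one of 0.0768 in the same comparison. At a minimum of 5 FPKM, Hspg2, Agrn and Lama2 had no value. The cause of these changes was not tested. The number of the 10 genes called, 1 in the reported fit, was 0 with no minimum, at 5 FPKM, with median-ratio scaling, with immunoglobulin genes left out, with 2 groups only and with the block, and 0 to 3 without 1 library. Array weights, whose estimation did not converge, called 9 for labelled-knockout libraries against aged controls, 9 for aged against young controls and 1 for labelled-knockout libraries against young controls. Over all genes, 417 calls for labelled-knockout libraries against aged controls became 92 with no minimum, 199 at 5 FPKM, 6347 with array weights, 14 with 2 groups only, 64 with the block and 13 to 1895 without 1 library. The 484 calls for aged against young controls became 138, 7419 (array weights), 2155 (2 groups) and 120 (block), and 4 to 2729 without 1 library. The 3 for labelled-knockout libraries against young controls became 1414 with array weights and 2 to 37 without 1 library. Between same-numbered libraries of different groups, deviations from the group means had r across genes of -0.29 to 0.30. Between differently numbered ones r was -0.41 to 0.37. Deviations from a mean of 3 libraries are tied to each other, so these values cannot decide whether the numbers pair samples.

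Small differences changed sign. For labelled-knockout libraries against aged controls these were Lama4 (0.46, array weights; -0.53 to 0.31 without 1 library), Lamc1 (-0.0585 with quantile scaling, -0.0757 without immunoglobulin genes) and Thbs1 (-0.33 to 0.0939 without 1 library). For aged against young controls they were Lama4 (0.17 with median-ratio, 0.0424 with quantile scaling, 0.14 without immunoglobulin genes; -0.49 to 0.0430 without 1 library), Lamb2 (0.27, 0.14 and 0.23; -0.51 to 0.19) and Lamc1 (0.0756 with median-ratio scaling, 0.0434 without immunoglobulin genes). For labelled-knockout libraries against young controls they were Lama2 (0.0262, median-ratio; 0.18, quantile; 0.0439, array weights; -0.17 to 0.14 without 1 library), Lamb1 (0.18, median-ratio; 0.0341, quantile; 0.0607 without immunoglobulin genes; -0.27 to 0.20) and Lamc1 (0.0917, median-ratio; -0.35 to 0.0283). Without 1 library, Lama4 (-0.74 to 0.16), Lamb2 (-0.0909 to 0.88) and Nid2 (-0.26 to 0.45) also crossed 0 there. Depth limits Lama2 and Lama5 most, which lay near 1 FPKM.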

Other observations

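Of the laminin chains outside the 10 genes, Lama3, an alpha chain of skin and other epithelia, stayed under the 1 FPKM minimum and was not tested. It averaged 0.183 ± 0.148 FPKM in labelled-knockout libraries, 0.293 ± 0.112 FPKM in aged controls and 0.743 ± 0.10 FPKM in young controls (SD, n = 3 each). Lama3 held 1.51% to 2.05% of alpha chain FPKM in aged controls, against 3.64% to 6.0% in young controls, with no overlap. Lamb3 averaged at most 0.10 FPKM and Lamc3 at most 0.203 FPKM in any group.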
